A study of Homo sapiens with 18 samples.

Results

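The genes described here are 10 markers by which epithelial and mesenchymal cells are told apart. They are the adhesion molecules CDH1, CDH2, CDH3, CDH11 and EPCAM, the epithelial splicing regulators ESRP1 and ESRP2, the epithelial transcription factor GRHL2, the intermediate filament VIM and the matrix protein FN1. A probe was taken as a member when the symbol in front of its number was 1 of these 10, which gave 13 of the 21111 probes measured, or 10 of 19289 gene symbols. FN1 was read by 3 probes, VIM by 2 probes and each other gene by 1 probe.

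The study asked what depletion of ASAP1, an Arf GTPase-activating protein, does to the transcriptome of triple-negative breast cancer (TNBC) cells. TNBC cells lack the estrogen and progesterone receptors and HER2 amplification. The 3 established human TNBC cell lines were BT549 and Hs578T, which the study calls mesenchymal-like, and SUM149PT, which it calls basal-like. Each line was transfected in 96-well plates with 50 nM of a SMARTpool of siRNAs against ASAP1 (siASAP1) or with a control mixture of kinase siRNAs (siCtrl), and lysed 72 h later. Every line and treatment had 3 biological replicates, so 6 groups and 18 libraries were available. The lysates were read by TempO-Seq, a targeted sequencing assay in which a pair of detector oligos is ligated on each transcript and the ligated probe is counted. The basal-like label rests on 1 line and the depletion on 1 siRNA pool, and no line stands for a class of tumors.

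Epithelial cells hold each other through E-cadherin (CDH1), whose cytoplasmic end binds catenins, and carry EpCAM on their surface. GRHL2 activates CDH1 and other junction genes, and ESRP1 and ESRP2 enforce the epithelial pattern of alternative splicing in transcripts such as FGFR2 and CD44. In the epithelial-mesenchymal transition (EMT) CDH1 is lost, N-cadherin (CDH2) or cadherin-11 can take its place, vimentin filaments replace keratins and fibronectin is laid down outside the cell. Breast cancer cells often hold genes of both programs at once.

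Library depth ranged from 4.63 to 12.5 M reads with a median of 6.63 M. All values below are normalized counts, which are reads divided by a size factor of the library, and Log2 FC is the difference of mean log2(normalized count + 1). A probe binds with its own efficiency, so levels are compared between libraries and not between genes. ASAP1 averaged 62.3% of its siCtrl level in siASAP1 libraries of BT549, 49.9% in Hs578T and 36.1% in SUM149PT. In SUM149PT the siCtrl libraries read 1087, 189 and 1314 and the siASAP1 libraries 282, 468 and 184, so the library labelled SUM149PT siCtrl replicate 2 had an ASAP1 level within the range of the depleted libraries. Its correlation with the other libraries of its group was 0.773, against 0.846 to 0.961 for the remaining libraries. Results that rest on it are therefore given with and without it.

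The label of the lines was checked on keratins, hormone receptors and markers of other cell types. KRT8, a keratin of simple epithelia, ranged from 7746 to 17042 in SUM149PT, from 47.4 to 315 in BT549 and from 80.9 to 377 in Hs578T. The sum of the breast keratins was 12531 to 33935 in SUM149PT, 66.1 to 324 in BT549 and 119 to 482 in Hs578T. The basal keratins KRT6A and KRT5 were at 0 in every BT549 and Hs578T library, and KRT14 was at 0 in 5 of 6 SUM149PT libraries. The progesterone receptor PGR reached at most 3.38 in any library, ERBB2 (HER2) ranged from 14.6 to 138, and 1 estrogen receptor probe, ESR1_12234, read 24.3 to 191 in SUM149PT, while the other ESR1 probe was at 0 in all 18 libraries. Immune, endothelial and adipocyte markers were at or near 0, except for 1 PECAM1 probe at 13.9 to 46.9 in Hs578T and 25.6 to 103 in SUM149PT, while the other PECAM1 probe was at 0 in all 18 libraries.

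**Figure D1:**
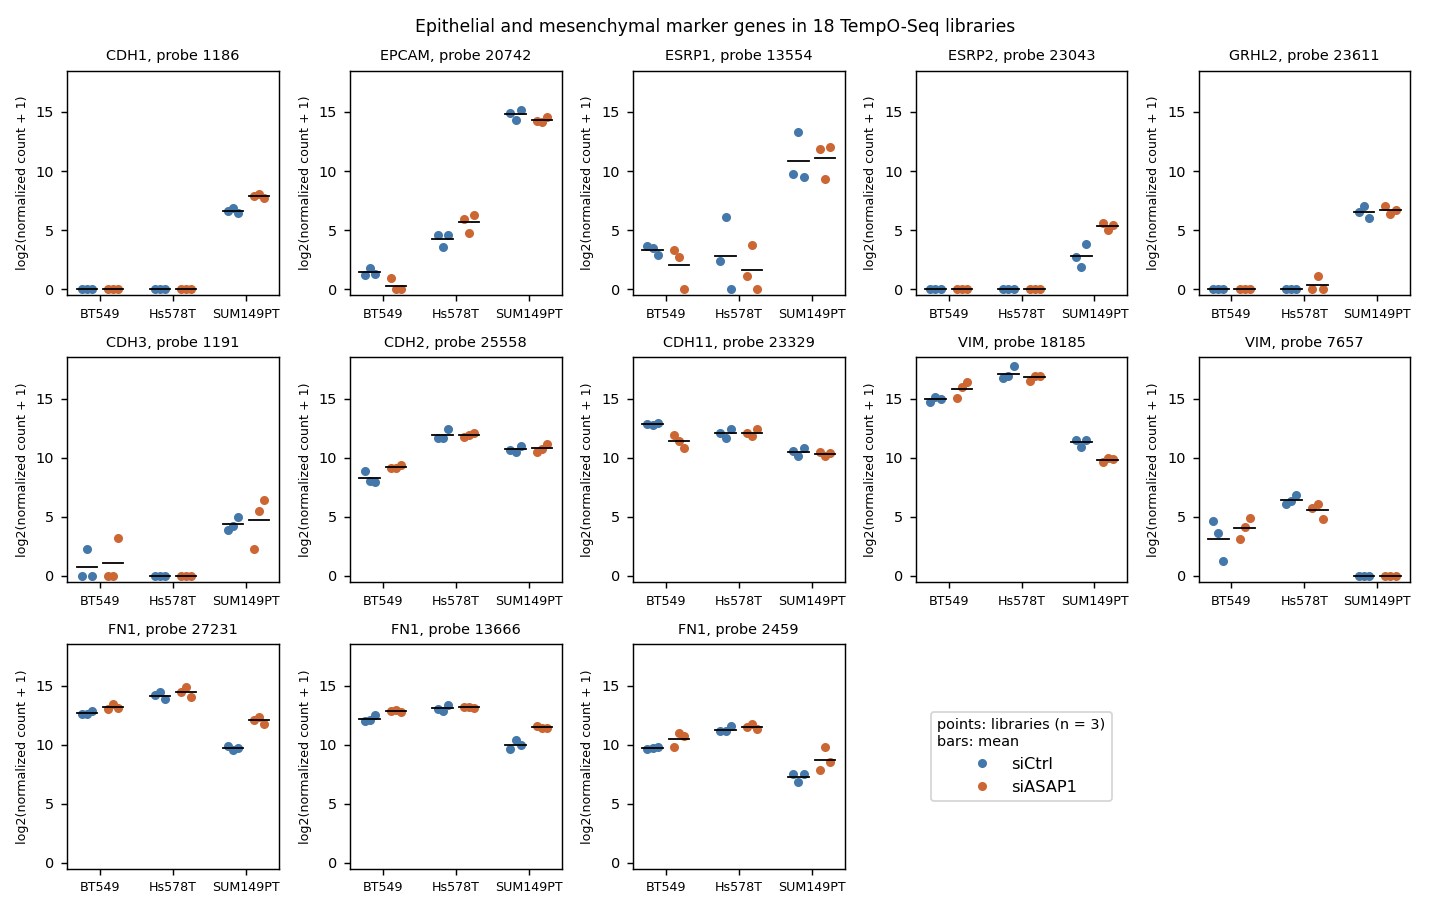
Normalized counts of the 13 member probes in each of the 18 libraries, on a log axis, by line and treatment. CDH1 lay between 87.9 and 263 in SUM149PT and at 0 in the 12 libraries of BT549 and Hs578T, while the vimentin probe VIM_18185 was lowest in SUM149PT.

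CDH1, the calcium-dependent adhesion molecule of epithelial junctions (chromosome 16, 68737225 to 68835548, plus strand, GRCh38), was read in SUM149PT only. Its siCtrl libraries gave 94.4, 114 and 87.9 normalized counts, and its siASAP1 libraries 229, 263 and 210.3. All 12 libraries of BT549 and Hs578T were at 0, where 3 reads would have given 1.73 to 3.74 normalized counts. Against that floor of 3 reads per library, siCtrl SUM149PT was at least 38.3-fold higher than BT549 and at least 37.3-fold higher than Hs578T. In a bulk lysate fewer cells of a type and less RNA per cell cannot be told apart, and this holds for every level given here.

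GRHL2, the transcription factor that keeps junction genes on, had the same order of lines. Its SUM149PT siCtrl libraries read 93.0, 129 and 65.5 and its siASAP1 libraries 132, 83.3 and 104. It was at 0 in 11 of the 12 other libraries, and the remaining library, Hs578T siASAP1 replicate 2, held 2 reads. The siCtrl level in SUM149PT was at least 37.2-fold above BT549. ESRP2 was at 0 in all 12 libraries of BT549 and Hs578T, but its SUM149PT siCtrl level was itself low at 5.72, 2.73 and 12.8, from 3 to 8 reads.

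ESRP1, like ESRP2 a regulator of epithelial splicing, was the least reproducible member. The SUM149PT siCtrl libraries read 858, 10399 and 735 and the siASAP1 libraries 3745, 659 and 4126. The highest value came from the library labelled SUM149PT siCtrl replicate 2, and the 2 treatments overlapped widely. BT549 siCtrl read 11.2, 10.1 and 6.31, and Hs578T siCtrl read 4.22, 66.1 and 0. Every SUM149PT library was above every library of the other lines. ESRP1 (94641074 to 94707466, plus strand) and GRHL2 (101492432 to 101669726, plus strand) both lie on chromosome 8.

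EpCAM, a surface glycoprotein of epithelial cells, separated all 3 lines. Its probe gave 31521, 20396 and 36679 in SUM149PT siCtrl, 22.8, 10.6 and 23.6 in Hs578T siCtrl and 1.25, 2.52 and 1.40 in BT549 siCtrl. These groups did not overlap, and the BT549 values came from 1 to 4 reads. The SUM149PT mean was 1553-fold the Hs578T mean. Hs578T, a line with the mesenchymal label and no CDH1 reads, thus held EPCAM reads in all 6 of its libraries. EPCAM lies on chromosome 2 (47345158 to 47387601, plus strand).

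P-cadherin (CDH3), which marks basal and myoepithelial cells of the breast, was low throughout. SUM149PT siCtrl read 14.3, 18.2 and 30.4 and SUM149PT siASAP1 read 3.97, 44.9 and 84.1, so the spread of the depleted libraries covered that of the controls. Hs578T was at 0 in its 6 libraries, and in BT549 only siCtrl replicate 2 (3.77) and siASAP1 replicate 3 (8.21) held reads. CDH3 lies next to CDH1 on chromosome 16, at 68636189 to 68722616.

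The cadherins named for mesenchymal cells did not order the lines alike. In siCtrl libraries CDH11 was lowest in SUM149PT, where CDH1 was highest, whereas CDH2 was intermediate there. CDH2 (N-cadherin, chromosome 18, 27950966 to 28177446, minus strand) read 1628, 1463 and 2108 in SUM149PT siCtrl, 462, 262 and 253 in BT549 siCtrl and 3264, 3222 and 5543 in Hs578T siCtrl. The basal-like line therefore lay between both mesenchymal-like lines, with no overlap in any of the 3 pairs. SUM149PT averaged 5.33-fold above BT549 (Log2 FC 2.45 ± 0.36 SE, adjusted p = 0.000916, limma). Against Hs578T it was lower by Log2 FC -1.18 ± 0.36 (adjusted p = 0.0454, limma), a call that was lost in 8 of the 9 fits leaving out 1 library, for example -1.07 (adjusted p = 0.051) without the library labelled SUM149PT siCtrl replicate 2.

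CDH11 (cadherin-11, or OB-cadherin, chromosome 16, 64943753 to 65126112, minus strand) joins mesenchymal cells and was present in every library. BT549 siCtrl read 7447, 7028 and 7901, Hs578T siCtrl 4493, 3296 and 5519 and SUM149PT siCtrl 1526, 1176 and 1824. Both mesenchymal-like lines were above SUM149PT in every library, by 4.94-fold for BT549 and 2.94-fold for Hs578T. BT549 and Hs578T did not overlap either, but the difference missed the threshold (Log2 FC -0.78, adjusted p = 0.14, limma). SUM149PT held the transcripts of E-cadherin, N-cadherin and cadherin-11 in the same lysates, while CDH1 reads were at 0 in BT549 and Hs578T.

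Vimentin, the intermediate filament protein of mesenchymal cells, showed the widest range between lines among the 6 member probes whose mean was at least 10 normalized counts in every group. Its probe VIM_18185 gave 27346, 36307 and 32649 in BT549 siCtrl, 108625, 126601 and 218740.0 in Hs578T siCtrl and 2908, 1994 and 2965 in SUM149PT siCtrl. The lines did not overlap, and the SUM149PT mean was exceeded 12.2-fold by BT549 and 57.7-fold by Hs578T. The other probe, VIM_7657, was at 0 in all 6 SUM149PT libraries, low in BT549 siCtrl (23.7, 11.3 and 1.40) and highest in Hs578T siCtrl (68.4, 82.4 and 112). Both probes therefore ranked the lines alike at very different levels.

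Fibronectin was highest in Hs578T and lowest in SUM149PT with each of its 3 probes. FN1_27231 read 973, 753 and 836 in SUM149PT siCtrl, 6137, 6277 and 7517 in BT549 siCtrl and 18994, 22109 and 14897 in Hs578T siCtrl. FN1_13666 averaged 1063 ± 292, 4785 ± 885 and 8705 ± 1465 in the same groups (SD, n = 3), and FN1_2459 averaged 159 ± 41.7, 844 ± 39.6 and 2511 ± 433. No siCtrl library of a line overlapped with another line for any FN1 probe. In SUM149PT after siASAP1 the FN1 probes rose nominally, as did CDH1 and ESRP2, and VIM_18185 fell. Of these genes, FN1 and VIM had a promoter sequence available, so their promoters are shown as context.

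The RefSeq promoter table (GRCh38.p14) held 3 of the 10 members, and 250 bases before the start of FN1 (chr2:215436069-215436318, minus strand) and of VIM (chr10:17227991-17228240, plus strand) are given from 5′ to 3′. Capitals mark exact matches on either strand to the letters of 6 motifs, namely TATAAA for the TATA box, CCAAT for the box of that name, GGGCGG for the GC box, TGACTCA for the AP-1 site, TGACGTCA for the cAMP response element (CRE) and CACCTG for the E-box.
FN1: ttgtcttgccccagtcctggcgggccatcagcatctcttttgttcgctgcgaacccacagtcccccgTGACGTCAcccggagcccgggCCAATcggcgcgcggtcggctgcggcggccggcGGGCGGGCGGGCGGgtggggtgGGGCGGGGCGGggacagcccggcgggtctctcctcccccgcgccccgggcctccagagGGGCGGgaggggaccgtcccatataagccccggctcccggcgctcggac
VIM: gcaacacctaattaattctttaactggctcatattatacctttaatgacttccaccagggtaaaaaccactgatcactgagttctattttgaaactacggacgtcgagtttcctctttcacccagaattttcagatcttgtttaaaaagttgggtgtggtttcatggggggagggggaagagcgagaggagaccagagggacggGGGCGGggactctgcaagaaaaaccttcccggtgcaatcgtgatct
The FN1 window held 1 CRE 183 to 176 bases before the start, 1 CCAAT 162 to 158 bases before it and 6 GC boxes, of which 3 overlapped each other, as did another 2. The VIM window held 1 GC box, 46 to 41 bases before the start. Of 35116 promoter windows of this length, 1.65% held the CRE letters, 32.0% CCAAT and 42.6% GGGCGG, so a GC box is common and the CRE letters are rare. These matches describe letters only, and binding was not measured.

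**Figure D2:**
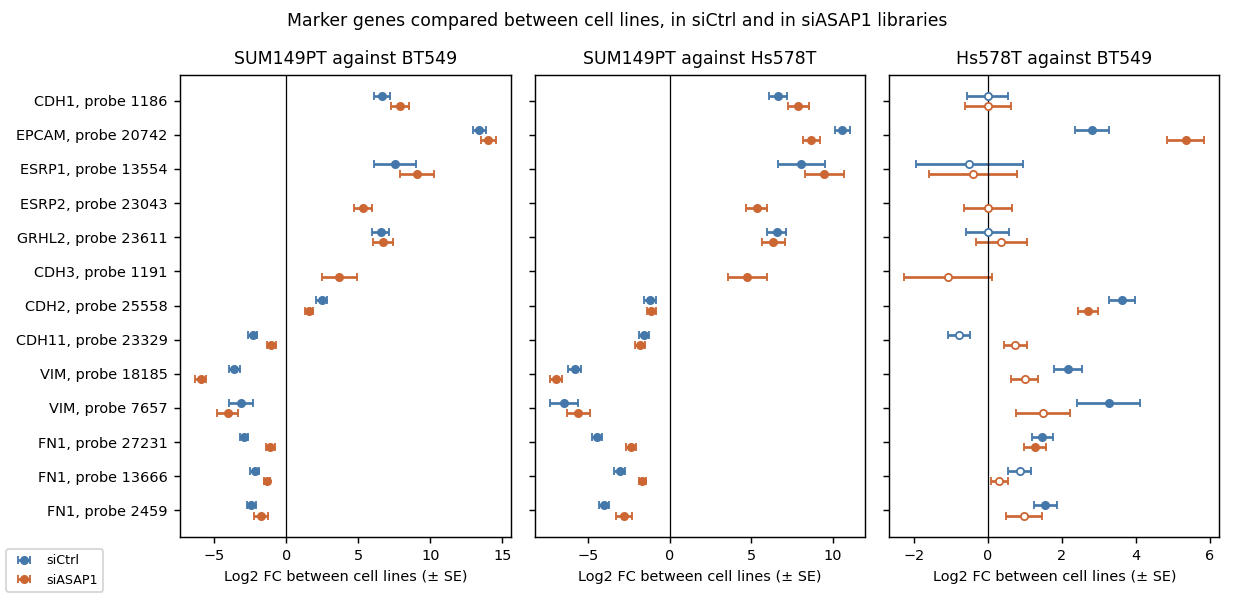
Log2 FC of the member probes in the 3 pairwise comparisons of lines, with standard errors, for siCtrl and siASAP1 libraries apart. CDH1, GRHL2, ESRP1 and EPCAM were higher in SUM149PT (EPCAM by 13.39 against BT549), and VIM_18185 was lower (-5.80 against Hs578T).

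The differences between lines were tested over all probes with a mean of at least 10 normalized counts, in the 9 siCtrl libraries, at adjusted p under 0.05 and absolute Log2 FC over 1 (limma, Benjamini-Hochberg). This background was 18.2% of 10255 probes for SUM149PT against BT549, 20.2% for SUM149PT against Hs578T and 13.8% for Hs578T against BT549. The 3 comparisons share their libraries. Among the members, 6 probes were over the minimum in every group (CDH2, CDH11, VIM_18185 and the 3 FN1 probes), and 6, 6 and 4 of these were called. The 3 FN1 probes read 1 gene, so these are counts of probes and not of independent members. The probes of CDH1, EPCAM, ESRP1 and GRHL2, and VIM_7657, passed the filter through the lines in which they are high, so that their calls add no support. ESRP2 and CDH3 were under the minimum in the siCtrl libraries and were not tested there.

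Against BT549, SUM149PT was lower in CDH11 (Log2 FC -2.33 ± 0.31, adjusted p = 0.000469), in VIM_18185 (-3.63 ± 0.37, adjusted p = 9.11e-05) and in the FN1 probes (-2.96 to -2.19), and higher in CDH2. Against Hs578T all 6 of these probes were lower in SUM149PT. Hs578T exceeded BT549 in CDH2 (3.63 ± 0.36, adjusted p = 0.000115, limma), VIM_18185 (2.18), FN1_2459 (1.56) and FN1_27231 (1.48), whereas FN1_13666 (0.87, adjusted p = 0.107) and CDH11 did not pass. Without the library labelled SUM149PT siCtrl replicate 2, the number of all member probes called was 11 against BT549 and 10 against Hs578T, and 11 and 11 with it.

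The siASAP1 libraries gave the same comparison in libraries that the siCtrl fit did not use. The background there was 21.7% of 10527 probes for SUM149PT against BT549, 27.9% against Hs578T and 19.5% for Hs578T against BT549. Of the 6 probes over the minimum in every group, 6, 6 and 2 were called, and part of these calls rested on single libraries. Against BT549 the CDH11 call was lost in 6 of 9 fits leaving out 1 library (-1.31 to -0.785), being kept without BT549 siASAP1 replicate 3 or Hs578T siASAP1 replicate 2 or 3. FN1_2459 was lost in 4 of 9 (-2.34 to -1.34), without SUM149PT replicate 1 or 3 or BT549 replicate 2 or 3, and FN1_27231 in 3 of 9 (-1.26 to -0.95), without SUM149PT replicate 1 or 3 or BT549 replicate 2. Against Hs578T the CDH2 call was lost without SUM149PT siASAP1 replicate 1 (-0.95). Between Hs578T and BT549 the FN1_27231 call was lost without Hs578T siASAP1 replicate 1 (1.27) or 2 (1.07). CDH2 was again intermediate in SUM149PT, at 1434, 1772 and 2325 between BT549 (555, 556 and 691) and Hs578T (3394, 4025 and 4407). The fibronectin gap was smaller, since FN1_27231 in BT549 was 2.14-fold SUM149PT in these libraries and 7.78-fold in the siCtrl libraries. The vimentin gap was larger, with VIM_18185 66.7-fold above SUM149PT in BT549 and 125-fold in Hs578T. Whether these gaps differed between treatments is the interaction test given further on.

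**Figure D3:**
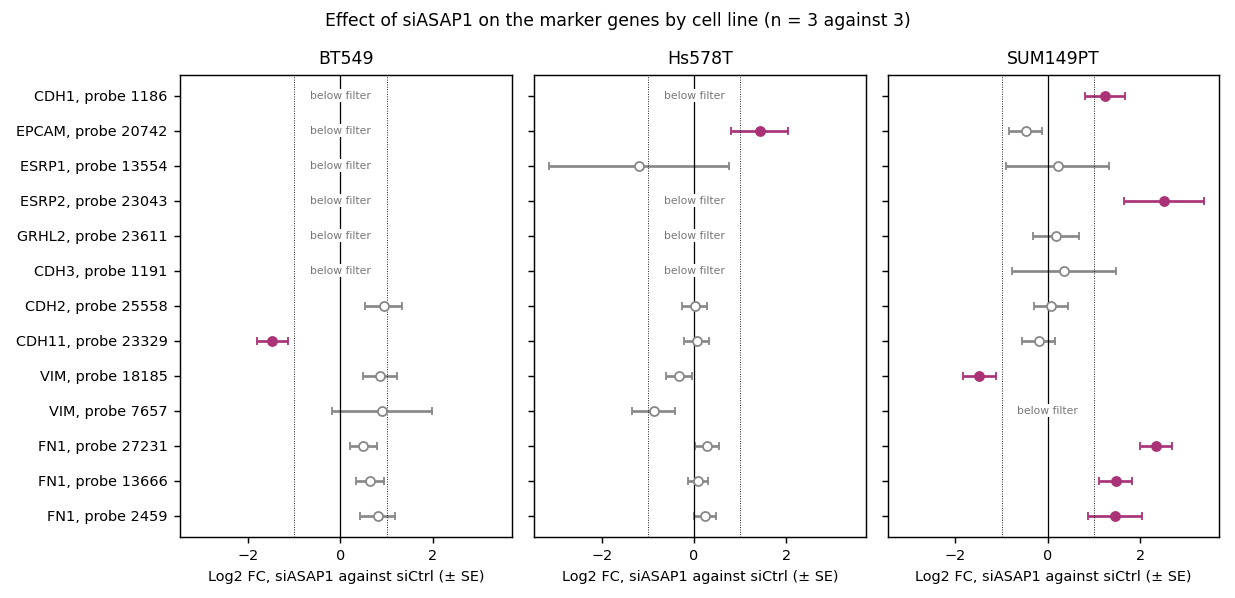
Log2 FC of siASAP1 against siCtrl for each member probe within BT549, Hs578T and SUM149PT, with standard errors, and probes under the minimum marked as below filter. In SUM149PT the 3 FN1 probes, CDH1 and ESRP2 were above 1 and VIM_18185 was at -1.48.

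Depletion of ASAP1 was compared with siCtrl in each line by the study's own limits, which ask for a Log2 FC beyond 1 in either direction together with p under 0.05 before adjustment. These limits were passed by 9.56% of 10078 probes in SUM149PT, 6.97% of 9666 in BT549 and 2.78% of 9500 in Hs578T, and by 6 of 12, 1 of 7 and 1 of 9 member probes tested. ESRP2, which is among the 6 in SUM149PT, passed the filter only through its siASAP1 libraries, so its call adds no support. A minimum mean of 10 in each treatment was a limit chosen after seeing the data. Under it 5 of 11 member probes and 8.93% of 9192 probes were called in SUM149PT. The shares were 1 of 7 and 6.57% in BT549, and 1 of 8 and 2.52% in Hs578T. In SUM149PT the 5 were CDH1, VIM_18185 and the 3 FN1 probes, which read 1 gene, so these counts are not counts of independent members. After adjustment over all probes 0 probes were called in any line by limma, with 1025, 754 and 502 at an unadjusted p under 0.05. The members' changes within a line are therefore nominal, and the adjusted p is given beside each member called. With 3 libraries against 3 an exact permutation test cannot go below p = 0.1.

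The fibronectin probes rose in SUM149PT. FN1_27231 went from 973, 753 and 836 to 4322, 5346 and 3493 normalized counts, or 514% of the siCtrl mean (Log2 FC 2.35 ± 0.35, limma p = 0.000151, adjusted p = 0.169, exact permutation p = 0.1). FN1_13666 went from 819.5, 1388 and 983 to 3116, 2766 and 2753 (1.47 ± 0.36, limma p = 0.00346, adjusted p = 0.334, exact permutation p = 0.1). FN1_2459 went from 184, 111 and 182 to 229, 923 and 367 (1.45 ± 0.59, limma p = 0.0387, adjusted p = 0.468, exact permutation p = 0.1). For each probe every siASAP1 library was above every siCtrl library. The log2 ratio of FN1_27231 to FN1_13666 was -0.29 in siCtrl and 0.59 in siASAP1 (difference 0.88 ± 0.38 SE), and its exact permutation p = 0.1 was the smallest that this design allows. Without the library labelled SUM149PT siCtrl replicate 2 the siCtrl ratio was 0.0066 and the difference 0.58.

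Vimentin fell in the same libraries. VIM_18185 went from 2908, 1994 and 2965 to 791, 1039.7 and 955, or 35.4% of the siCtrl mean (Log2 FC -1.48 ± 0.36, limma p = 0.00319, adjusted p = 0.334, exact permutation p = 0.1). The treatments did not overlap. Thus 2 mesenchymal markers moved in opposite directions in the line in which both were lowest.

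E-cadherin rose with fibronectin. CDH1 went from 94.4, 114 and 87.9 to 229, 263 and 210.3 without overlap (Log2 FC 1.24 ± 0.42, limma p = 0.0189, adjusted p = 0.411, exact permutation p = 0.1). The call was lost without SUM149PT siASAP1 replicate 2 (1.15), siCtrl replicate 1 (1.21) or siCtrl replicate 3 (1.16). ESRP2 went from 5.72, 2.73 and 12.8 to 46.3, 30.8 and 42.1 (2.52 ± 0.87, limma p = 0.0205, adjusted p = 0.418, exact permutation p = 0.1), from 3 to 8 reads to 24 to 35 reads. It passed the filter only through the siASAP1 libraries, and its call was lost without siASAP1 replicate 1 (2.40) or replicate 3 (2.47).

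**Figure D4:**
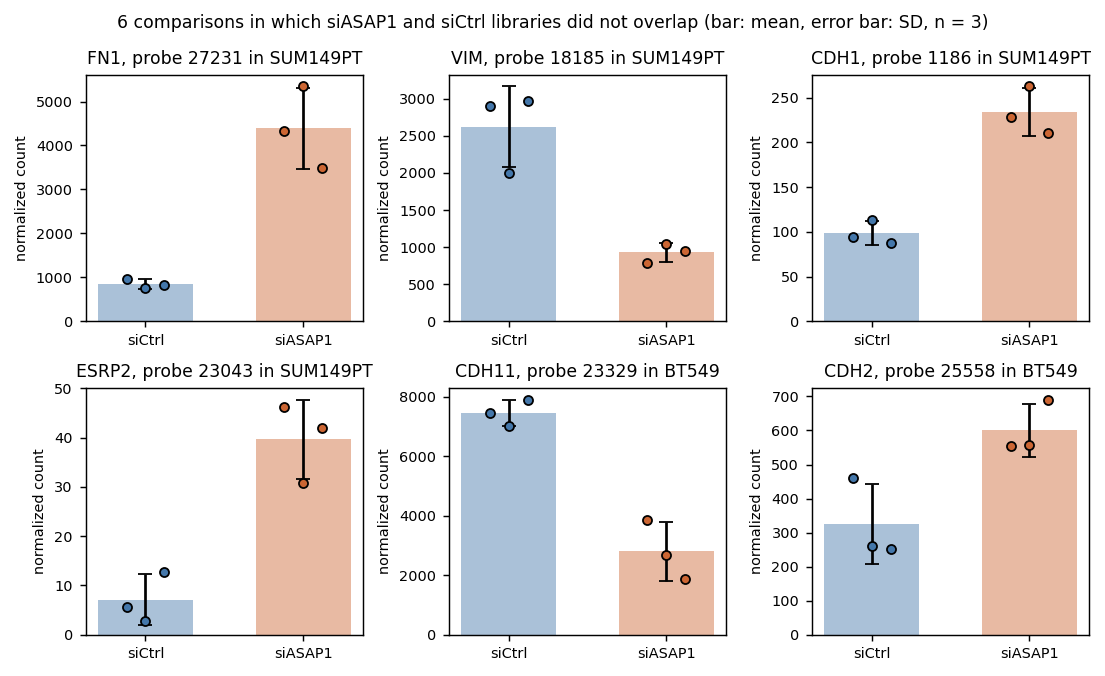
Normalized counts per library (points) with mean and SD (bar and error bar, n = 3) for 6 comparisons in which siASAP1 and siCtrl libraries did not overlap. Each panel starts at 0 and shows, for example, CDH11 in BT549 at 7458.5 ± 437 with siCtrl and 2802 ± 1003 with siASAP1.

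The other SUM149PT members did not pass these limits. EPCAM read 19253, 18650.2 and 24189 after siASAP1 (Log2 FC -0.48 ± 0.36), GRHL2 gave 0.18 ± 0.50, CDH2 0.08 ± 0.37, CDH11 -0.19 ± 0.36, CDH3 0.36 ± 1.13 and ESRP1 0.21 ± 1.11. The standard errors of CDH3 and ESRP1 exceed 1 on the log2 scale, so changes of that size were not detectable for them. Without the library labelled SUM149PT siCtrl replicate 2, FN1_27231 (2.26, adjusted p = 0.0489, limma) and FN1_13666 (1.68, adjusted p = 0.0489) passed the adjusted threshold as well, and VIM_18185 was at -1.67 (adjusted p = 0.0521). FN1_2459 was no longer called in that fit (1.21, adjusted p = 0.228), and it was lost in 5 of the 6 fits with 1 library left out, with the lowest value, 0.90, without siASAP1 replicate 2. CDH1 was at 1.35 and ESRP2 at 2.06 without that library, and ESRP1 moved to 1.45.

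In BT549 the called member was CDH11. It went from 7447, 7028 and 7901 to 3859, 2685 and 1863, or 37.6% of the siCtrl mean (Log2 FC -1.47 ± 0.34, limma p = 0.00138, adjusted p = 0.311, exact permutation p = 0.1). Every siASAP1 library was below every siCtrl library, and the call was kept with each library left out in turn (-1.74 to -1.21). CDH11 in the other lines gave 0.06 in Hs578T and -0.19 in SUM149PT.

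N-cadherin moved the other way in BT549 without passing the limit on size. CDH2 read 555, 556 and 691 against 462, 262 and 253, with no overlap (Log2 FC 0.93 ± 0.39, limma p = 0.0373, adjusted p = 0.63, exact permutation p = 0.1). VIM_18185 read 33617, 64528 and 87612 against 27346, 36307 and 32649, with overlap (0.85 ± 0.36, adjusted p = 0.633, limma). The FN1 probes gave 0.49 to 0.81 (adjusted p from 0.646 to 0.665, limma), each with siASAP1 libraries above all siCtrl libraries. BT549 siASAP1 replicate 1 was the lowest of its group in VIM_18185 and FN1_2459 and had the lowest ASAP1 level of the line (367, against 730 and 783), and without it FN1_2459 (1.15, adjusted p = 0.0469, limma) and VIM_18185 (1.24, adjusted p = 0.0435) were called. CDH2 was called without BT549 siCtrl replicate 1 (1.21).

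Non-overlap of the treatments was found for 13.9% of probes tested in BT549, 12.1% in Hs578T and 17.3% in SUM149PT. Among the members it was found for CDH11, CDH2 and the 3 FN1 probes in BT549, for EPCAM in Hs578T, and for CDH1, ESRP2, VIM_18185 and the 3 FN1 probes in SUM149PT. The FN1 probes read 1 gene and are not independent of each other.

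In Hs578T the called member was EPCAM. It went from 22.8, 10.6 and 23.6 to 61.2, 25.4 and 77.8, from 13 to 27 reads to 44 to 73 reads (Log2 FC 1.42 ± 0.61, limma p = 0.0434, adjusted p = 0.923, exact permutation p = 0.1). The groups did not overlap, but the lowest siASAP1 library (25.4) and the highest siCtrl library (23.6) were close. The call was lost without siASAP1 replicate 1 (1.27) or replicate 3 (1.10) and without siCtrl replicate 1 (1.58) or replicate 2 (1.06). The remaining members gave Log2 FC from -1.19 ± 1.95 for ESRP1 to 0.28 ± 0.26 for FN1_27231, and VIM_18185 was at -0.33 ± 0.27.

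The effect common to the lines was fitted on all 18 libraries with the line as a covariate, where 1.74% of 10475 probes passed an adjusted p under 0.05 (limma). FN1_27231 was the member called (Log2 FC 1.04 ± 0.26, adjusted p = 0.0477), with 8 of 9 siASAP1 libraries above the siCtrl mean of their line. By line its Log2 FC was 2.35 in SUM149PT, 0.49 in BT549 and 0.28 in Hs578T, so the value over 18 libraries is an average led by SUM149PT. FN1_13666 (0.73 ± 0.19, adjusted p = 0.056) and FN1_2459 (0.83 ± 0.26, adjusted p = 0.107) missed the threshold, with 9 of 9 libraries above. Permuting the treatment within lines gave an exact p of 0.00175 for each of the 3 probes. That test asks whether any line changed and does not show a rise in each line. The call of FN1_27231 was lost in 15 of 18 fits with 1 library left out (0.90 to 1.15), including that without the library labelled SUM149PT siCtrl replicate 2 (0.92, adjusted p = 0.0746). Summing the 3 probes of FN1 gave 0.90 (adjusted p = 0.0355, limma).

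CDH11 was nominally lower over the 18 libraries (Log2 FC -0.54 ± 0.23, adjusted p = 0.238, limma), with 7 of 9 libraries below. Its exact permutation p within lines was 0.0365, which again asks only whether any line changed. The value is an average led by BT549 (-1.47). SUM149PT gave -0.19 with overlap of the treatments, and Hs578T, at 0.06, showed no fall. In the same fit over 18 libraries CDH2 gave 0.34 ± 0.20 (exact permutation p = 0.0938), EPCAM -0.06 and VIM_18185 -0.32. The treatment effects of the lines were compared by an interaction F test, which 0.00955% of 10475 probes passed at an adjusted p under 0.05. That was 1 probe, SNAI2_24257 (adjusted p = 0.00647), for the EMT transcription factor Slug, which is no member. The other probe of that gene, SNAI2_6603, was not called. The member nearest to the threshold was FN1_27231 (adjusted p = 0.083), followed by VIM_18185 (adjusted p = 0.224, limma). A difference between lines in the response of any member was therefore not shown, with 0 member probes called. At an unadjusted p under 0.05 (limma) were 5 of 12 member probes, FN1_27231 and FN1_13666 of the same gene among them, and 6.22% of all 10475 probes.

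Other genes of the epithelial program separated the lines in the direction of CDH1. Over all probes 18.2% were called against BT549 and 20.2% against Hs578T. Of 33 junction, polarity and trafficking genes, 24 probes were tested in the siCtrl libraries, and SUM149PT was higher in 13 and lower in 0 against BT549 (median Log2 FC 3.49, all probes -0.04) and higher in 18 and lower in 0 against Hs578T (median 5.16). The largest differences against BT549 were CLDN7 (10.79), a tight junction claudin, DSP (9.67), the desmosomal plakin, and MAL2 (9.48), a protein of apical transport. Of the other epithelial regulators and surface genes, 20 probes were tested, with 15 higher and 1 lower against BT549 (median 5.45), led by SPINT1 (11.84), an inhibitor of surface serine proteases. Many of these probes passed the filter through SUM149PT alone, so their counts and single values are a description.

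BT549 and Hs578T differed in the same lists, where 13.8% of all probes tested were called for this pair. Hs578T was lower than BT549 in 5 of the 24 junction probes and higher in 1, with F11R (-5.78), OCLN (-4.77) and CLDN1 (-4.69), which all belong to tight junctions, at the lower end. BT549, although without CDH1 reads, thus held transcripts of tight junction proteins that were lower in Hs578T. CLDN1 was at 0 in every Hs578T library and OCLN averaged 1.93 in Hs578T siCtrl. Both passed the filter through the other lines, so their calls add no support.

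Mesenchymal genes were lower in SUM149PT with exceptions. The share of all probes called was 18.2% against BT549 and 20.2% against Hs578T. Of 17 cytoskeleton and surface probes, 8 were lower and 1 higher against BT549, and 13 were lower and 0 higher against Hs578T, among them THY1 (-7.39 and -9.56), a surface antigen of fibroblasts. Of 22 matrix probes, 11 were lower and 5 higher against BT549. SPARC_24939, for a collagen-binding matrix protein, was lower by -11.12 and -11.40, whereas GREM1, an antagonist of BMPs, was higher in SUM149PT than in BT549 by 9.54. Of 9 probes for EMT transcription factors, 6 were lower than in BT549 and 7 lower than in Hs578T, with PRRX1 at -6.39 and -8.05. Among 3 probes for other cadherins, CDH6 was lower than in both lines (-7.97 and -10.58) and CDH13 was higher than in BT549 (4.53). CDH6 was at 0 in every SUM149PT library, so it passed the filter only through the lines in which it is high and adds no support. The counts and the single values named from these lists are a description, since probes can pass the filter through the lines in which they are high.

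After siASAP1 few genes of these lists were called, and the share over all probes was 9.56% in SUM149PT, 6.97% in BT549 and 2.78% in Hs578T. Within the lines 0 of them passed adjustment, so each rise or fall named is nominal. In SUM149PT 3 of 29 junction probes were higher and 0 lower. They were CRB3, a polarity protein, PPL, a plakin (Log2 FC 1.87, adjusted p = 0.47, limma), and OCLN, the tight junction protein occludin (1.75, adjusted p = 0.442, limma). CRB3 was at 0 in the 3 siCtrl libraries and at 15.4 to 27.8 after siASAP1, so it passed the filter only through the libraries in which it is high and adds no support. Without the library labelled SUM149PT siCtrl replicate 2 PPL was at 1.01 and no longer called, and OCLN was at 2.26.

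Of 23 other epithelial probes, GRHL1 (2.58, adjusted p = 0.401, limma) and EHF (1.92, adjusted p = 0.377, limma), both transcription factors of epithelia, rose and 0 fell. Of 12 matrix probes, LOX (-1.39, adjusted p = 0.377, limma), which crosslinks collagen, and VCAN (-1.37, adjusted p = 0.47, limma), a proteoglycan, fell. Of 12 cytoskeleton and surface probes 0 were called. Of 7 probes for EMT transcription factors, SNAI2_24257 rose (1.48, adjusted p = 0.377, limma, from 86.4 to 239, no overlap) and 0 fell. The other probe of that gene, SNAI2_6603, was under the minimum, at 8.06 in siCtrl and 6.58 in siASAP1, with overlap. Of 2 probes for other cadherins CDH13 rose (1.87, adjusted p = 0.385, limma, with overlap). Of 9 probes for breast keratins, KRT6A (1.87, adjusted p = 0.418, limma) and KRT17 (1.54, adjusted p = 0.41, limma) rose. The median of the matrix list was -0.29 and that of the junction list 0.26, against 0.09 for all probes.

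Without the library labelled SUM149PT siCtrl replicate 2 the values were 2.03 for GRHL1, 1.83 for EHF, -1.08 for LOX, 1.40 for SNAI2_24257, 2.38 for CDH13, 1.20 for KRT6A and 1.08 for KRT17, all still called, while VCAN (-1.36) was not. With each SUM149PT library left out in turn, EHF, LOX and SNAI2_24257 were called every time. PPL and VCAN were lost in 5 of 6 fits, PPL being kept without siCtrl replicate 3 and VCAN without siASAP1 replicate 2. OCLN was lost in 4 fits (lowest 1.21 without siCtrl replicate 3, also without siCtrl replicate 1 and siASAP1 replicates 1 and 3) and CDH13 in 3 (1.53 to 1.62, without siASAP1 replicate 1 and siCtrl replicates 1 and 3). GRHL1 (2.36 and 2.17), KRT6A (1.502 and 1.85) and KRT17 (1.24 and 1.56) were lost without siASAP1 replicate 2 or 3.

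In BT549 2 of 2 probes for other cadherins and 1 of 9 for catenins and cadherin partners were called, all lower. CDH6 fell by 2.72 on the log2 scale, from 267 to 53.6 without overlap (adjusted p = 0.485, limma). CDH18 fell from 33.3 to 4.81 (adjusted p = 0.611, limma) and passed the filter only through its siCtrl libraries. CTNNB1, the beta-catenin that binds the tail of classical cadherins, fell by 1.01, from 1377 to 664 (adjusted p = 0.581, limma). CLDN1, the 1 probe called of 7 junction probes, rose from 30.3 to 308 (3.55, adjusted p = 0.145, limma). Of 8 probes for EMT transcription factors, 3 were lower and 0 higher. Of these SNAI2_6603 (-2.32, adjusted p = 0.525, limma) and SNAI2_24257 (-1.57, adjusted p = 0.31, limma) read the same gene, and TCF4 was at -1.68 (adjusted p = 0.63, limma). The matrix list gave 3 higher and 2 lower of 18. With each BT549 library left out, CDH6, CLDN1 and both SNAI2 probes were called every time, although CDH6 moved to -1.77 without siASAP1 replicate 3. TCF4 was lost in 4 of 6 fits (-1.59 to -1.11, without replicate 2 or 3 of either treatment), CDH18 in 3 (-2.82 to -2.04, without siASAP1 replicate 3 or siCtrl replicate 1 or 2) and CTNNB1 in 2 (-0.99 without siASAP1 replicate 2 and -0.79 without siCtrl replicate 1).

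In Hs578T 2 of 21 matrix probes were called, among them TNC (1.57, from 290 to 902, adjusted p = 0.711, limma). AXL (-1.28, from 3323 to 1294, adjusted p = 0.803, limma), a receptor tyrosine kinase of mesenchymal cells, was the 1 called of 17 cytoskeleton and surface probes. KLF5 (1.27, from 17.0 to 43.7, adjusted p = 0.923, limma) was the 1 called of 5 other epithelial probes. TNC was called with each library left out, AXL was lost without siCtrl replicate 3 (-0.92), and KLF5 was lost in 5 of 6 fits (1.02 to 1.46), being kept without siASAP1 replicate 2. Over all 18 libraries LOX (-1.07 ± 0.21, adjusted p = 0.011) and CTNNB1 (-0.71 ± 0.15, adjusted p = 0.020) were called by limma, also with each library left out.

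Genes whose pattern was most like that of CDH1 were sought among 10463 probes by Pearson correlation of log2 values over the 18 libraries, which is a description, since the points share 3 lines. Among the nearest were STOX2 (r = 0.9991), BNC1 (0.9987), B4GALNT3 (0.9971) and MCTP2 (0.9959), which like CDH1 were at 0 in BT549 and Hs578T. The nearest to CDH2 were FAM107B (0.970), COL13A1 (0.966), ARHGAP29 (0.957), TNFRSF21 (0.949) and MMP2 (0.947). Shared zeros in BT549 and Hs578T alone bring r with CDH1 near its upper end, so the r values of both genes are not compared.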

How the data were processed

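The authors deposited log2(normalized count + 1) per probe, from TempO-Seq reads counted per probe and divided by size factors of DESeq2. The submitters' processing notes name bcl2fastq and Bowtie, whose versions are not given in the sources used here. Whole reads were recovered from these values (100% within a tolerance of 0.01 reads) and served for depth, floors and other scalings. The floors and counting intervals cover counting error only.

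The deposited log2 values were fitted with limma 3.58.1 (lmFit and eBayes with trend, R 4.3.3) over all probes with a mean of at least 10 normalized counts in the fitted libraries, with Benjamini-Hochberg adjustment over all of them. The lines were compared in the 9 siCtrl and the 9 siASAP1 libraries apart, siASAP1 with siCtrl within each line (6 libraries) and over 18 libraries with the line as covariate, and the interaction by an F test. Single values were tested by 2-sided exact permutation, within lines over 8000 relabellings with a smallest p of 0.00025. Scripts ran under Python 3.11.15 and were tested on simulated data. Alternatives were TMM scaling, library totals alone, no filter, a minimum of 50, a pseudocount of 5 in place of 1, voom weights, summed probes, a replicate block, all 18 libraries in 1 fit, and each library left out.

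All 10 members were named, and from each gene list up to 3 called probes with the largest absolute Log2 FC per comparison, as well as the 5 probes most correlated with CDH1 and with CDH2. Leaving out libraries for the list probes, and a minimum in each treatment, were alternatives chosen after seeing the data. Some probes that this rule names are not reported here. The members and lists were chosen with earlier results of these data known. Gene positions are from GENCODE 29 (GRCh38).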

Additional observations from a re-analysis of the deposited data

Results flagged for a closer look

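For 2 member probes every siASAP1 library of a line lay above the siCtrl mean of that line, while every siASAP1 library of another line lay below its own. EPCAM gave Log2 FC 1.42 for Hs578T but -0.48 for SUM149PT, a difference of 1.898. VIM_18185 had 0.85 in BT549 and -0.33 in Hs578T, a difference of 1.178, and -1.48 in SUM149PT, a difference of 2.333 from BT549. These pairs of lines were picked for that pattern, other members with opposite mean changes did not show it in every library, and the single differences were not tested. The interaction test over the 3 lines gave an adjusted p of 0.388 for EPCAM and 0.224 for VIM_18185 (limma).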

How the results depend on the processing

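Of 97 counts of members under alternatives other than leaving out a library, 87 stayed within 1.5 times, and of 1060 single-probe values of members 1026 kept direction and side of the threshold. The Hs578T count fell from 1 to 0 with no filter, a minimum of 50 or voom. The count over 18 libraries fell from 1 to 0 with TMM, no filter, voom or a replicate block and rose to 2 with library totals alone or a minimum of 50.

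Same-numbered libraries did not all deviate together (r of their deviations from -0.65 to 0.41 over all pairs of groups), so the numbers were not taken to pair them. With the replicate block the SUM149PT count was 3 (FN1_27231, FN1_13666, VIM_18185) in place of 6, and FN1_27231 over 18 libraries had an adjusted p of 0.164.

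With 1 library left out, counts ranged from 8 to 12 (of 13) for SUM149PT against BT549 in siASAP1 libraries, lowest without SUM149PT siASAP1 replicate 3, from 1 to 3 in BT549, and from 0 to 1 in Hs578T and over 18 libraries. Log2 FC changed sign for ESRP1 in Hs578T against BT549 (-2.13 to 0.91 in siCtrl, -1.47 to 0.42 in siASAP1, 0.082 with a pseudocount of 5). After siASAP1 it changed sign in SUM149PT for CDH3 (-0.47 to 1.58), ESRP1 (-0.46 to 1.45), GRHL2 (-0.068 to 0.42), CDH2 (-0.10 to 0.25) and, with library totals alone, CDH11 (0.021). It did so in Hs578T for CDH11 (-0.14 to 0.23), CDH2 (-0.12 to 0.27) and FN1_13666 (-0.023 to 0.21), and in BT549 for VIM_7657 (-0.054 to 1.63). Over 18 libraries it did so for CDH3 (-0.087 to 0.56), VIM_7657 (-0.33 to 0.18, and -0.0859 with a pseudocount of 5, -0.27 with voom, -0.32 summed) and EPCAM (-0.26 to 0.074, 0.0422 with library totals, 0.14 with a pseudocount of 5). The cause was not tested. Library totals alone moved the median of all probes in SUM149PT from 0.09 to 0.30. Probes with under 10 reads, such as ESRP2 in siCtrl, are limited by depth.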
